A study of Mus musculus with 10 samples.

Results

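The histone genes are described here through the 84 probe sets, of 35556 on the array, whose annotation names nothing but histone genes. Members were taken by symbol alone: every symbol of a row had to begin with H1f, H2a, H2b, H3 or H4 in the current mouse nomenclature, or with the older Hist1h to Hist4h. The 84 rows cover 83 symbols, of which 44 have a row of their own (46 rows) and 39 occur only in rows that list several symbols (38 rows). Another 9 rows mix a histone symbol with that of a pseudogene or another gene and are not members. Of the 84 members, 76 had a mean log2 signal of 6.23 or more (a filter set at the 25th percentile of all 35556 probe sets) and entered the tests.

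Gene expression was measured on 10 one-colour microarrays with RNA of c-Kit-positive cells from 5 independent mouse acute myeloid leukaemia lines driven by the MLL-AF9 fusion, all carrying the tamoxifen-inducible Cre-ER transgene. Lines 10949, 10950 and 10986 carried a floxed allele of the X-linked transcription factor gene Zfx (Zfx fl/y, fl lines here) and lines 10977 and 10980 the wild-type allele (wt/y, wt lines). Each line was cultured for 72 h with 10 nM 4-hydroxytamoxifen (4-OHT), which switches Cre on, or with ethanol alone as vehicle, after which cells bearing c-Kit were sorted. All cultures contained the cytokines IL-3 and IL-6 (10 ng/mL) and stem cell factor (SCF, the ligand of c-Kit, 20 ng/mL). Every line gave 1 vehicle array and 1 4-OHT array, so that the fl groups hold 3 arrays each and the wt groups 2, with the line as the replicate. The leukaemias were taken from moribund mice, whose age the labels do not give, and each line is 1 leukaemia, so that the genotypes are compared over 3 lines against 2. In these bulk samples, fewer cells of a type and less RNA per cell cannot be told apart.

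Histones package DNA. An octamer of H2A, H2B, H3 and H4 forms the nucleosome core, and the linker histone H1 binds where DNA enters and leaves it. Most copies are replication-dependent: their genes lie in clusters, their RNA is made in S phase and normally ends in a stem-loop in place of a poly(A) tail, and many copies encode nearly the same protein. Variants such as H2A.X, H2A.Z and H3.3 are made outside S phase as well, from genes whose RNA carries a poly(A) tail in most or part of its transcripts. Because copies are so alike, signals of rows with near-identical copies can include RNA of several genes, and single-gene values below are uncertain to that extent.

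In the fl lines, most histone rows that name a single gene were lower with 4-OHT, while rows that name many copies at once had changes close to 0. The most negative log2 changes were those of the H3 genes H3c15 (-1.80) and H3c4 (-1.61), the H2B gene H2bc8 (-1.63), the variant gene H2ax (-1.40) and the linker gene H1f3 (-1.11). No member passed the test over all rows, at an adjusted p under 0.05 in limma (0 of 76, against 5 of all 18530 rows, 0.027%, of which 0.0108% were lower and 0.0162% higher). At an unadjusted p under 0.05, 20 members were lower (26.3%) and 0 higher, against 5.61% of all rows in each direction. Signals of H3c4, H3c15 and H2bc8 on the fl 4-OHT arrays lay within or close to the range of the wt arrays.

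RefSeq promoters (GRCm38.p6, 250 bases before the start of the gene to 50 after it) are printed for the linker and H3 genes with the 2 most negative changes in their class and for the first such H2B and H4 gene, H2bc8 and H4c9, so that windows with and without the motifs can be compared. Capitals mark CCAAT, the box bound by NF-Y, and TATAA, the TATA core, on either strand.
H3c4, chr13:23575513-23575812, plus strand: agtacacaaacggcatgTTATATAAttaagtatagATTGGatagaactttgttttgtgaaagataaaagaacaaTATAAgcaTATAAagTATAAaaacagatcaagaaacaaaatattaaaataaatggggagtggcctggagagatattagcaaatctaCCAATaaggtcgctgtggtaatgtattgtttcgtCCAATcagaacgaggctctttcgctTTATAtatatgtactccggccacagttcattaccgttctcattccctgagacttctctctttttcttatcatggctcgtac
H3c15, chr3:96239078-96239377, minus strand: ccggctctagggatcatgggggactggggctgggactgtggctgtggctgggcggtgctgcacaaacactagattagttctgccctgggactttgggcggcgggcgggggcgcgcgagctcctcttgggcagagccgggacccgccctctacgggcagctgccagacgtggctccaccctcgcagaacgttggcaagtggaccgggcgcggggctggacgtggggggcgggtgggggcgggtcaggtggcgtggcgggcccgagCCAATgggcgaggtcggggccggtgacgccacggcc
H2bc8, chr13:23571150-23571449, plus strand: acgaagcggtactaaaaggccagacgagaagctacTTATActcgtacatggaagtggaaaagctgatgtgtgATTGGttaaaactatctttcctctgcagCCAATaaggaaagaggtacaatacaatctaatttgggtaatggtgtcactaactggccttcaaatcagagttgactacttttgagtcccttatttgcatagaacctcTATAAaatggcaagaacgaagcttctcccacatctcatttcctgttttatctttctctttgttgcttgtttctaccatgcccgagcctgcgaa
H4c9, chr13:22041313-22041612, minus strand: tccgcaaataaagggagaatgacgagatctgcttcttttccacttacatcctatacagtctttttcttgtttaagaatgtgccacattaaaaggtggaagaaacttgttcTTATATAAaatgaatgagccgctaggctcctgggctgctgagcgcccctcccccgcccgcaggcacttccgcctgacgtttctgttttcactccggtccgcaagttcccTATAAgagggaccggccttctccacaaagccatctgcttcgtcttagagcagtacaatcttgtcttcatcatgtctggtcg
H1f3, chr13:23554782-23555081, plus strand: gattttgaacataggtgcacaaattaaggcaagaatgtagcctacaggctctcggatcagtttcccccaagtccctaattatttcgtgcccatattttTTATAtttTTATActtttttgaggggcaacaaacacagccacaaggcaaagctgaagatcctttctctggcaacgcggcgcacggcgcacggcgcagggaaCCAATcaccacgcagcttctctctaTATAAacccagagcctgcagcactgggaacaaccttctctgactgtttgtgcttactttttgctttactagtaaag
H1f2, chr13:23738557-23738856, plus strand: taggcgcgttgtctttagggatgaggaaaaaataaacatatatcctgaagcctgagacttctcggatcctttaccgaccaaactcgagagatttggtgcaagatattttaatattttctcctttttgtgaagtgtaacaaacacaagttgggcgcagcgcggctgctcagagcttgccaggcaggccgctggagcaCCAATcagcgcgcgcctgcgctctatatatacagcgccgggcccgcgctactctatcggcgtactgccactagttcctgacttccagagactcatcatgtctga
The TATAA nearest the start begins 31 bases before it in H3c4 and H4c9, 43 in H2bc8 and 26 in H1f3, and the nearest CCAAT 56 bases before it in H3c4, 51 in H1f3 and 54 in H1f2. The windows of H3c15, whose row had the most negative change, and of H1f2 hold no TATAA, and the only CCAAT of H3c15 begins 14 bases after the start. Only the exact string TATAA was searched, so similar stretches, such as tatatata in the H1f2 window, are unmarked. H2bc8 has its CCAAT copies 178 and 150 bases before the start, and the window of H4c9 holds no CCAAT.

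Of the 83 member symbols, 77 had a promoter in the RefSeq table, and these genes had 78 promoters. CCAAT was found on either strand in 64.1% of the 78, against 37.4% of all 32851 promoters of the same 300 bases, and TATAA in 53.8% against 24.9%. AGGCCT, a palindromic core reported for Zfx-bound sites, was found in 13 of the 78 (16.7%), against 10.3% of all. In the windows printed, no CCAAT shares a base with a TATAA, while TATAA copies on opposite strands overlap in H3c4 and H4c9. Among genes with a row of their own, CCAAT was in 11 of the 14 promoters of genes lower at an unadjusted p under 0.05 in the fl lines and in 15 of the 19 of the others, TATAA in 9 of 14 and 10 of 19, and AGGCCT in 1 of 14 and 3 of 19. These counts differ by few promoters, and no match or its absence says whether a factor binds there.

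A few facts of the whole series bear on these values. The vehicle array of line 10986 stood apart, with a mean correlation of 0.963 with the other 9 arrays, against 0.980 to 0.986 for each of the others. The signal of Zfx, the targeted gene, was not lower in the fl 4-OHT arrays (10.07, 9.98 and 10.02 in lines 10949, 10950 and 10986) than in the fl vehicle arrays (10.09, 9.63 and 9.24), and nothing read here places its probes inside or outside the deleted part, so it checks neither the deletion nor the labels. Markers fixed for the labelled cells were measured in 9 of 9 cases, with Kit between 8.35 and 9.94 and Mpo, the myeloperoxidase gene, between 11.29 and 13.62 on the 10 arrays. Array signals give no absolute zero, so the T cell gene Cd3e (6.92 to 7.33) can only be said to lie close to the level filter. This does not hold for the whole lymphoid list, since its B cell gene Cd79b had 9.51 to 11.03.

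Linker histones are described first. Of 8 linker rows 6 were tested, all 6 had a negative mean change in the fl lines (median -0.49), and 3 were lower at an unadjusted p under 0.05. H1f3, encoding the replication-dependent linker H1.3, had log2 signals of 7.96, 9.38 and 8.72 on the vehicle arrays of lines 10949, 10950 and 10986 and of 7.50, 7.82 and 7.40 on their 4-OHT arrays. Its levels in the wt lines were 7.60 and 7.40 with vehicle and 7.26 and 7.97 with 4-OHT in lines 10977 and 10980. The fl vehicle arrays lay above all fl 4-OHT arrays, and the difference was -1.11 (SE 0.26, n = 3 line pairs, limma adjusted p = 0.205).

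H1f2, which encodes H1.2, stood at 9.94, 10.85 and 10.78 with vehicle and at 9.40, 9.67 and 10.09 with 4-OHT in the same fl lines, and at 9.01 to 9.34 on the 4 wt arrays. It was lower within each fl pair, but the groups overlapped, since the vehicle level of line 10949 lay below the 4-OHT level of line 10986, and the difference was -0.80 (SE 0.15, adjusted p = 0.164). All 6 fl arrays were above all 4 wt arrays, a separation whose share over all rows was not counted. H1f5 had a change of -0.60 (SE 0.18, adjusted p = 0.287) and did not overlap between the fl groups, with 12.61 to 13.00 under vehicle and 11.98 to 12.41 under 4-OHT. H1f1 had a change of -0.37 (SE 0.17). H1f10, the replication-independent linker gene, had a change of -0.18 (SE 0.12), and H1f7, known from the testis, by -0.02 (SE 0.15). The other germ line genes of the class, H1f6 and H1f8, did not pass the level filter, and no member row carried H1f0.

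Core H3 had the largest differences of any class. All 3 single-gene rows were lower at an unadjusted p under 0.05, with a median change of -1.61. H3c15, a gene of the smaller cluster on chromosome 3, had vehicle signals of 8.10, 9.29 and 8.98 and 4-OHT signals of 6.75, 7.35 and 6.86 in lines 10949, 10950 and 10986. Of the wt lines, 10977 had 7.28 with vehicle and 6.63 with 4-OHT, and 10980 had 6.86 and 7.90, so the wt pairs had opposite signs. All fl vehicle arrays were above the other 7 arrays, and the change in the fl lines was -1.80 (SE 0.32, adjusted p = 0.163), a linear fold of 3.49.

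H3c4, a gene of the large cluster on chromosome 13, stood at 9.55, 10.85 and 10.53 with vehicle and at 8.33, 9.18 and 8.59 with 4-OHT in the fl lines, and at 8.18 to 8.91 on the 4 wt arrays. Here too each fl vehicle array exceeded the other 7, with a change of -1.61 (SE 0.19, adjusted p = 0.106) and a linear fold of 3.05. H3c7 was lower by less, at -0.61 (SE 0.21, adjusted p = 0.349), with -1.09 in line 10950 and -0.18 in line 10949. The 10 rows that list 12 H3 symbols each behaved otherwise. Their changes ran from -0.07 to -0.02, 0 of 10 passed at an unadjusted p under 0.05, and their signals lay between 14.19 and 14.56 on every array.

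Of the 9 single-gene rows of core H2B, 5 were lower at an unadjusted p under 0.05, and the mean change was below 0 in all 9. The lines did not share a sign in every row: H2bc4 had changes of 0.04, -0.87 and 0.42 in lines 10949, 10950 and 10986 (mean -0.14, SE 0.30). H2bc8 stood out: it had 10.82, 11.85 and 11.31 on the vehicle arrays of lines 10949, 10950 and 10986 and 9.46, 9.95 and 9.68 on the 4-OHT arrays. Its wt signals were 9.69 and 9.18 in line 10977 and 9.63 and 10.14 in line 10980. Again the fl vehicle arrays lay above the other 7, and the change was -1.63 (SE 0.21, adjusted p = 0.12), a linear fold of 3.10. H2bc22 had 7.70, 8.37 and 8.26 with vehicle and 7.32, 7.56 and 7.41 with 4-OHT, a change of -0.68 (SE 0.14, adjusted p = 0.172) without overlap of the fl groups. H2bc18 and H2bc21, both on chromosome 3, had a change of -0.50 (SE 0.10) and -0.44 (SE 0.12). The 7 rows with 14 or 15 symbols, all H2B but for H4bc24, had changes between -0.20 and -0.11, all negative and none at an unadjusted p under 0.05.

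Core H2A had small changes. Of 4 single-gene rows 3 were tested, and their changes were -0.15 for H2ac1 (SE 0.08), -0.11 for H2ac15 (SE 0.11) and -0.07 for H2ac4 (SE 0.19). H2ac1, a copy known from the testis, stood at 9.41, 9.64 and 9.43 with vehicle and at 9.28, 9.44 and 9.32 with 4-OHT in the fl lines. H2ac15 had 13.79, 13.83 and 13.69 with vehicle and 13.68, 13.63 and 13.67 with 4-OHT. For both, the vehicle array was above the 4-OHT array in each fl line by at most 0.20. The mean log2 signal of H2ac15, 13.64, lay above the 99th percentile of the array (13.59), where signals can understate a difference. H2ac4 had changes of -0.47, -0.11 and 0.37 in lines 10949, 10950 and 10986, so its mean hides unlike signs. H2ac8 was below the level filter, and the rows that list many H2A symbols also list a pseudogene and are not members.

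Core H4 lay between H3 and H2A. Of 6 single-gene rows, 4 were lower at an unadjusted p under 0.05 and the median change was -0.35. H4c9 had 8.93, 9.50 and 9.34 with vehicle and 8.41, 8.67 and 8.46 with 4-OHT in the fl lines, with 8.29 to 8.75 on the 4 wt arrays. The fl vehicle arrays were above the other 7 and the change was -0.74 (SE 0.12, adjusted p = 0.145). H4c3 had a change of -0.72 (SE 0.20, adjusted p = 0.258), with 11.57, 11.51 and 10.68 under vehicle and 10.65, 10.49 and 10.47 under 4-OHT, and line 10986 contributed little (-0.21, against -0.92 and -1.03). With vehicle and 4-OHT, the wt signals of H4c3 were 10.72 and 10.14 in line 10977 and 10.50 and 10.55 in line 10980. H4c4, the neighbour of H3c4 in the cluster, had a change of 0.06 (SE 0.12), and its 95% interval ran from -0.23 to 0.34. Its pairs had changes of -0.09, -0.07 and 0.34 in lines 10949, 10950 and 10986. The mean log2 signal of H4c4, 14.40, lay above the 99th percentile of the array (13.59), where signals can understate a difference. The 5 rows with 11 H4 symbols had a change of -0.08 to -0.04.

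**Figure D1:**
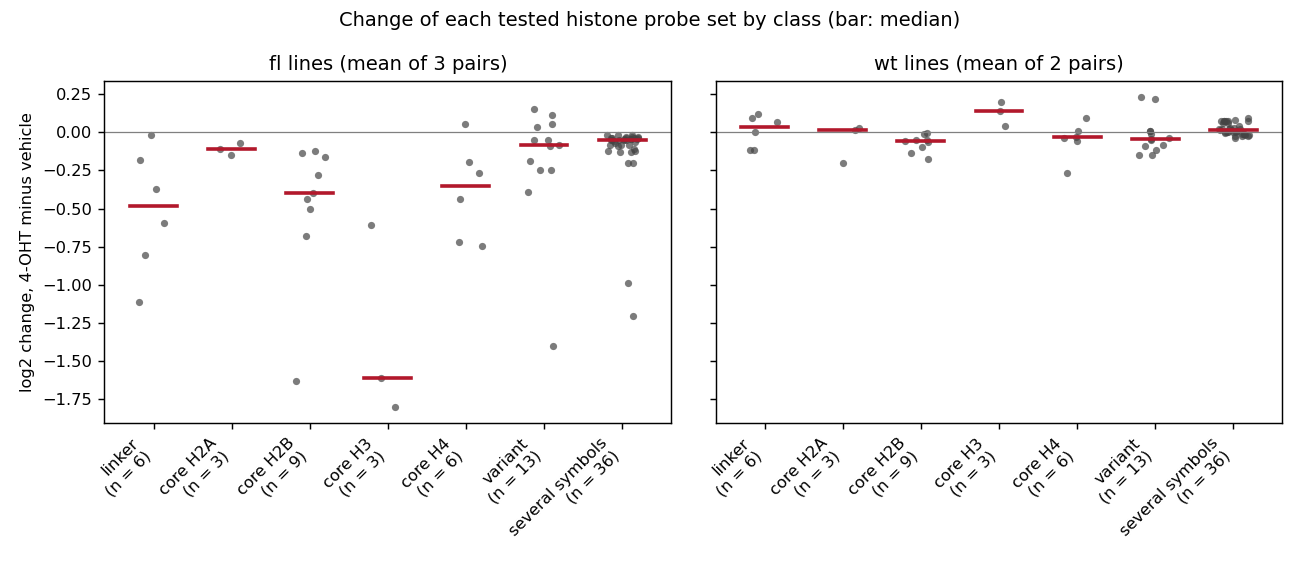
Log2 change with 4-OHT of each of the 76 tested histone probe sets (points), by class, as the mean over 3 fl line pairs (left) and 2 wt line pairs (right); red bars are class medians and n is the number of probe sets. In the fl lines the medians were -0.49 for linker, -0.11 for H2A, -0.40 for H2B, -1.61 for H3 and -0.35 for H4 rows, against -0.05 for rows with several symbols, and in the wt lines all points lay between -0.27 and 0.23.

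A pair of rows with 2 symbols each behaved like the single-gene rows. The row of the H4 genes H4c17 and H4c11 had 8.70, 9.79 and 9.31 with vehicle and 7.74, 8.27 and 8.19 with 4-OHT in the fl lines (change -1.20, SE 0.24, adjusted p = 0.169). The row of H2bc6 and the linker gene H1f4 had 10.32, 11.59 and 10.60 with vehicle and 9.81, 9.99 and 9.74 with 4-OHT (change -0.99, SE 0.22, adjusted p = 0.19). In both the fl vehicle arrays were above all 7 others. The 12 rows of the X-linked H2al genes, which are known from the testis, list 8 to 13 symbols each. Their changes lay between 0.32 and 0.48 in line 10949, between -0.10 and 0.15 in line 10950, and between -0.72 and -0.48 in line 10986, so the fl lines did not share a direction. Several-symbol rows as a whole had small changes: over the 36 tested, the median change was -0.05, against -0.25 over the 40 single-gene rows and -0.00 over all 18530 rows. The 22 rows with more than 3 H2B, H3 or H4 symbols all had mean signals above 13.59, the 99th percentile of the array, and signals at the top of an array's range can understate a difference. The part of that limit in these small changes was not tested. These rows share most of their sequence, so their counts are not independent, and 6 of the 84 members repeat the values of another member on every array.

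The rows of H3c4, H3c15 and H1f2 are the only 3 single-gene members whose annotation lists a cDNA clone and no RefSeq transcript. All 3 were among the 20 lower members. Which stretch of the RNA their probes read was not analysed here.

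Variants were split. This class held every single-gene row left over by symbol, so not all its genes encode a variant protein. Of 16 rows 13 were tested, with a median change of -0.08. At an unadjusted p under 0.05, 3 were lower: H2ax, H2aj and the H4 gene H4f16. H2ab1 and H2az1 have repeated rows, those of H2ab1 with identical values, so the rows are not separate genes. H2ax encodes H2A.X, which is phosphorylated around DNA breaks, and is known to give both a stem-loop and a polyadenylated RNA. Its signals were 9.89, 10.48 and 10.61 with vehicle and 8.64, 9.33 and 8.81 with 4-OHT in lines 10949, 10950 and 10986. In the wt lines they were 9.45 and 9.46 in line 10977 and 9.50 and 9.97 in line 10980. The fl vehicle arrays were above all fl 4-OHT arrays, and the fl 4-OHT arrays were also below all 4 wt arrays. The change in the fl lines was -1.40 (SE 0.16, adjusted p = 0.106), a linear fold of 2.64, the smallest adjusted p of the members together with H3c4.

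The other rows of the variant class had smaller changes. H4f16, an H4 gene outside the clusters, had 12.14, 12.06 and 11.73 with vehicle and 11.64, 11.58 and 11.53 with 4-OHT (change -0.39, SE 0.10, adjusted p = 0.231), and H2aj, the gene of H2A.J, had a change of -0.25 (SE 0.09, adjusted p = 0.365). The genes of H2A.Z, a variant at promoters, had positive values close to 0. H2az2 had 10.69, 9.85 and 9.91 with vehicle and 10.50, 10.15 and 10.26 with 4-OHT in the fl lines and 10.72 to 10.91 on the wt arrays, a change of 0.15 (SE 0.13, 95% interval -0.17 to 0.48). The fl and wt arrays of H2az2 did not overlap: the fl arrays were all lower. The nearest arrays had 10.69 (fl line 10949, vehicle) and 10.72 (wt line 10980, 4-OHT). The share of all rows with such a separation was not counted. Both rows of H2az1 had a change of 0.06 and 0.03 (SE 0.11 and 0.09), with signals of 13.19, 13.02 and 12.73 under vehicle and 13.14, 12.96 and 13.01 under 4-OHT in the first of them, and turned to -0.06 and -0.04 without line 10986. The only member row of H3f3a, an H3.3 gene, had 6.96, 6.94 and 7.42 with vehicle and 6.99, 7.05 and 7.02 with 4-OHT (change -0.09, SE 0.12), and it turned to 0.07 without line 10986. Its mean log2 signal of 7.01 lies near the level filter, and 4 further rows that name H3f3a together with a pseudogene are no members and have their values among the other observations. No member row carried H3f3b alone.

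**Figure D2:**
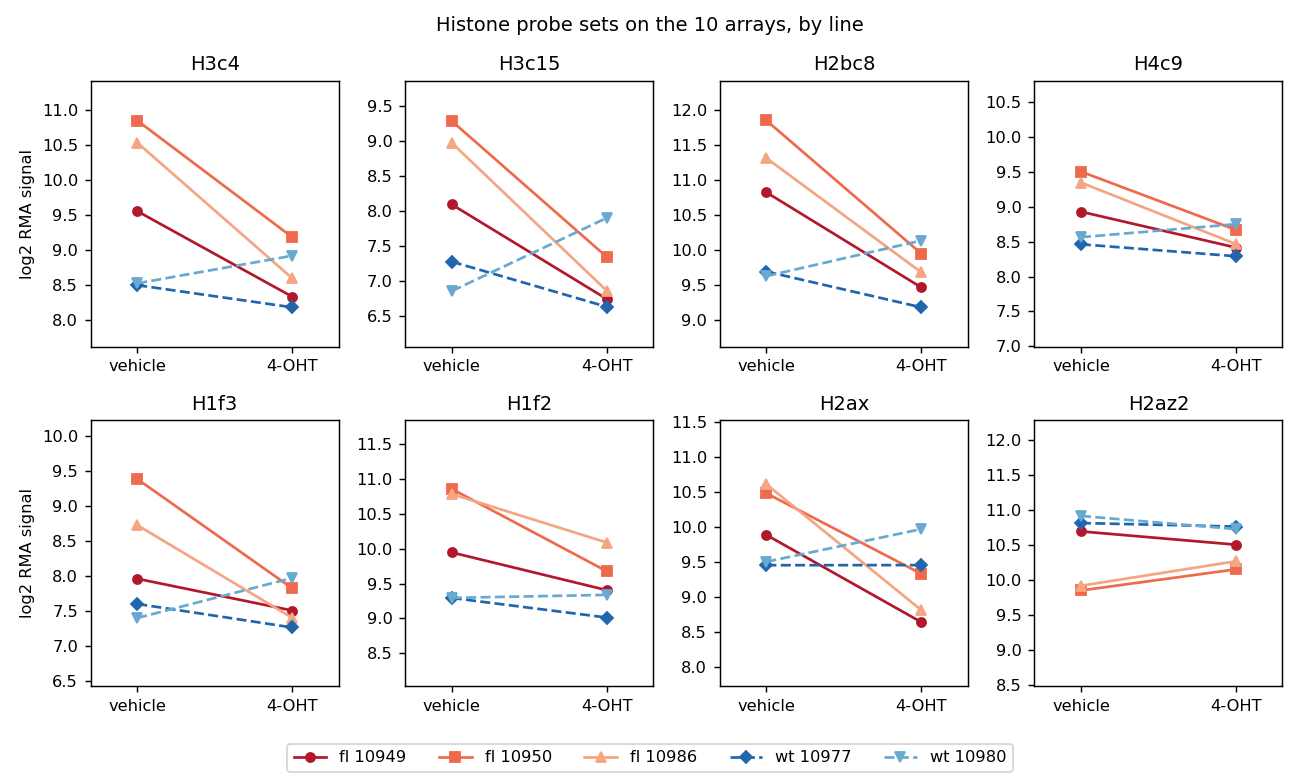
Log2 RMA signal of 8 histone probe sets on the vehicle and 4-OHT array of each line (lines join the arrays of a line; solid red tones fl, dashed blue tones wt; panels have the same height in log2 units). H3c4, H3c15, H2bc8 and H4c9 show the 3 fl vehicle arrays above all 7 others, H2ax shows the 3 fl 4-OHT arrays below all 4 wt arrays, and H2az2 shows the fl arrays below the wt arrays.

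Neighbouring genes often had unlike changes. In the order of the RefSeq table, the histone genes between H3c7 and H4c4 on chromosome 13 with a tested row of their own were H3c7, H4c6, H1f3, H2bc8, H3c4 and H4c4, with changes of -0.61, -0.43, -1.11, -1.63, -1.61 and 0.06. Next among genes with such a row came H2bc4 (-0.14), H4c3 (-0.72), H1f2 (-0.80), H2bc3 (-0.40) and H2ac4 (-0.07). On chromosome 3, H3c15 (-1.80) lay between H2bc21 (-0.44) and, as the next gene with such a row, H4c14 (-0.27). Genes with large and small measured differences thus lay side by side in both clusters. The signal of H4c4 (mean log2 14.40) was near the top of the array's range, however, where a difference can be understated.

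The 3 fl line pairs had the same sign in most members but not in all. Over all 76 tested members, 49 were lower with 4-OHT in all 3 fl lines (64.5%, against 14.4% of all rows) and 0 higher in all 3 (against 14% of all rows). In 29 members each fl vehicle array exceeded each fl 4-OHT array (38.2%, against 7.13%). A 4-OHT signal at least 1 log2 unit below the vehicle signal in every fl line was seen in 4 members (H3c4, H3c15, H2bc8 and H2ax) and in 12 of all 18530 rows (0.0648%). Over the members, lines 10949, 10950 and 10986 had median changes of -0.09, -0.10 and -0.20, against -0.01, 0.03 and -0.05 over all rows. For the 20 lower members the medians were -0.48, -0.93 and -0.76, but these rows were chosen on that contrast.

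In the wt lines no member passed by limma (0 of 76, against 0% of all rows), and at an unadjusted p under 0.05 there were 0 members against 0.054% of rows lower and 0.0702% higher. The mean changes ran from -0.27 for H4c3 to 0.23 for H2ax, with a median of 0.00. This mean hides opposite pairs. With 4-OHT, 46 of 76 members were lower in line 10977 and higher in line 10980 (60.5%, against 23.8% of all rows), and 7 were lower in both (9.21%, against 24.3%). Among the 20 members chosen as lower in the fl lines, 19 were lower in line 10977 (median of the 20, -0.26) and all 20 were higher in line 10980 (median 0.18). For these rows line 10977 therefore had the sign of the fl lines and line 10980 the opposite one.

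**Figure D3:**
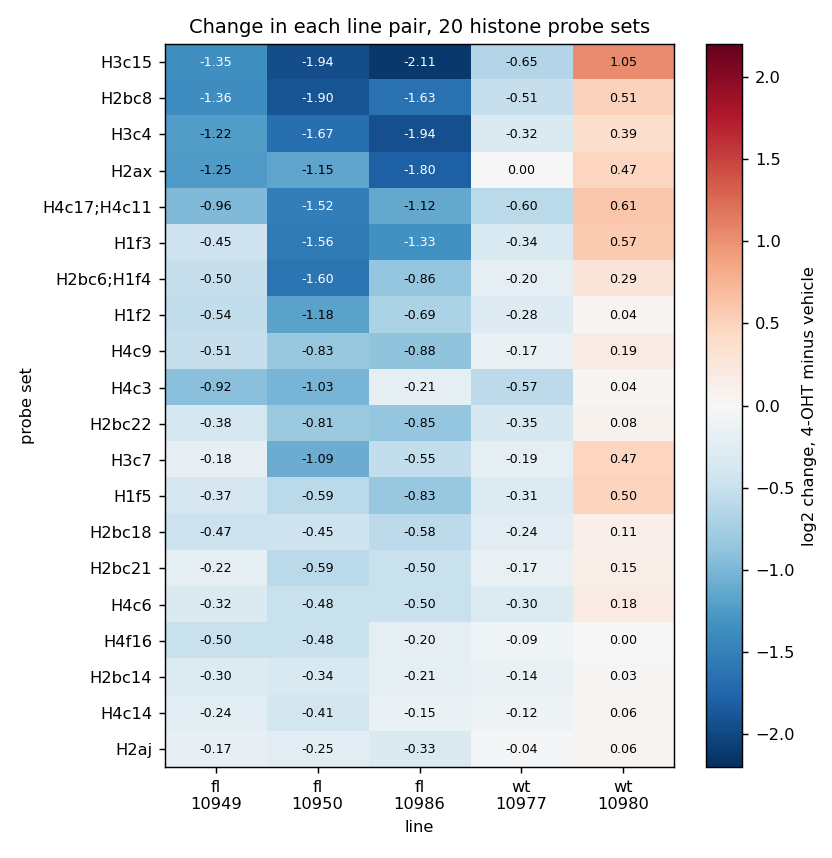
Log2 change with 4-OHT in each line pair for the 20 histone probe sets lower in the fl lines at an unadjusted p under 0.05 (rows, in order of the mean fl change; columns are the 3 fl and 2 wt lines; blue is lower and red higher with 4-OHT). The fl columns were used to choose the rows; in the wt columns 19 of 20 are below 0 in line 10977 and 20 of 20 above 0 in line 10980.

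The difference of the 4-OHT effect between fl and wt lines tests whether the change goes beyond that of 4-OHT and Cre in cells without a floxed allele. No member passed by limma (0 of 76, against 0% of all rows). At an unadjusted p under 0.05, 12 members had a more negative change in the fl lines (15.8%, against 2.7% of all rows) and 0 a more positive one (against 2.54%). H2ax came first with -1.63 (SE 0.26, n = 3 and 2 line pairs, adjusted p = 0.842), then H3c4 with -1.65 (SE 0.30), H2bc8 with -1.63 (SE 0.33), H3c15 with -2.0 (SE 0.51) and H4c9 with -0.75 (SE 0.19), each with an adjusted p of 0.883. Linker genes were among the 12 with H1f3 at -1.23 (SE 0.41), H1f2 at -0.68 (SE 0.24) and H1f5 at -0.69 (SE 0.28). Adding the wt lines thus left the size of these differences about as large as in the fl lines alone, with wider errors.

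In the vehicle cultures, kept for the same 72 h without 4-OHT, a part of the histone rows was higher in the fl than in the wt lines at an unadjusted p only. No member passed by limma (0 of 76, against 0% of all rows), but 21 were higher at an unadjusted p under 0.05 (27.6%, against 4.09% of all rows) and 1 was lower (against 5.5%). H3c4 was higher by 1.80 (SE 0.38, n = 3 against 2 lines, adjusted p = 0.272), H3c15 by 1.72 (SE 0.44), H2bc8 by 1.67 (SE 0.33, adjusted p = 0.261) and the H4c17 and H4c11 row by 1.51 (SE 0.35). H1f2 and H1f3 were higher by 1.23 (SE 0.28) and 1.19 (SE 0.37), H2ax by 0.85 (SE 0.26) and H2aj by 0.48 (SE 0.10). H2az2 was the lower one, by 0.71 (change -0.71, SE 0.23, adjusted p = 0.41). In 37 members each fl vehicle array was above each wt vehicle array (48.7%, against 18.2% of all rows). In 19 members each fl vehicle array exceeded the other 7 arrays (25%, against 1.85% of all rows), 12 of them single-gene rows and 5 of the others rows of 14 or 15 mostly H2B symbols. This comparison and that of 4-OHT in the fl lines share the 3 fl vehicle arrays, so the second does not stand as separate evidence for the first. Without line 10950 the 21 came to 13. The share of all rows in that fit is not given, so this count cannot be read as above or below it.

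Under 4-OHT the genotypes lay close together. No member passed by limma (0 of 76, against 0.367% of all rows), and at an unadjusted p under 0.05 there were 0 members higher (against 3.49%) and 1 lower (against 6.33%). That 1 was H2ax, at -0.79 (SE 0.26, adjusted p = 0.313). H3c4 differed by 0.16 (SE 0.38), H3c15 by -0.28 (SE 0.44) and H2bc8 by 0.04 (SE 0.33), errors that leave room for differences of either sign. Of the 76 members, H2bc4 had the largest positive difference, 0.80 (SE 0.36, adjusted p = 0.536), and H1f2 stood at 0.55 (SE 0.28, adjusted p = 0.64). All 3 fl 4-OHT arrays were below all 4 wt arrays in 4 members, H2ax, H2az2, H2bc3 and H2ap (5.26%, against 10.7% of all rows).

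The spread between lines was larger with vehicle than with 4-OHT for most members. The range over the 5 vehicle arrays exceeded that over the 5 4-OHT arrays in 69 of 76 members (90.8%, against 67.9% of all rows). For H3c4 the ranges were 2.35 and 1.0, for H3c15 2.43 and 1.27, for H2bc8 2.23 and 0.96 and for H1f3 1.99 and 0.71. H2ax was the exception among the 20 lower members, with 1.16 and 1.33.

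**Figure D4:**
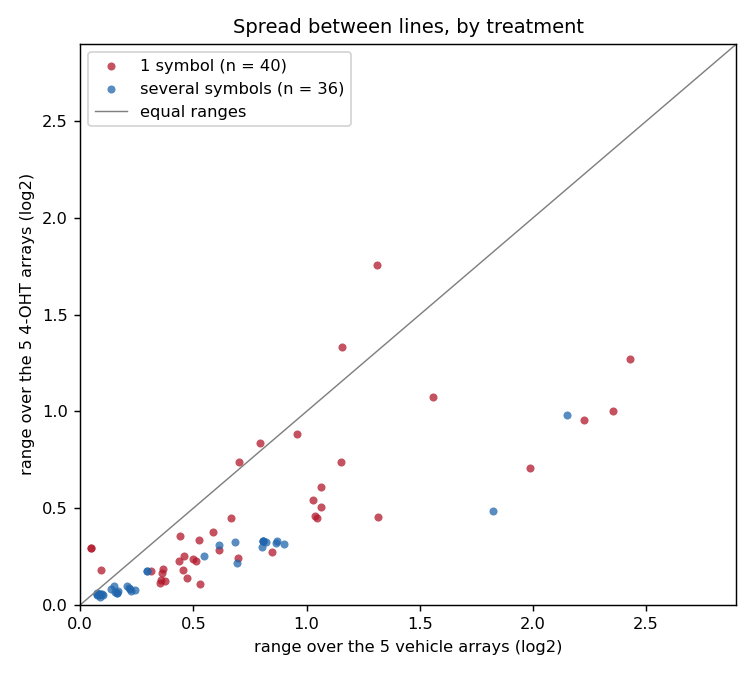
Range (highest minus lowest log2 signal) over the 5 4-OHT arrays against that over the 5 vehicle arrays for the 76 tested histone probe sets, with single-gene rows in red, several-symbol rows in blue and the line of equal ranges in grey. In 69 of 76 the point lies below the line, and vehicle ranges reach 2.43 while 4-OHT ranges reach 1.76.

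Other genes of histone supply were measured through lists chosen by name. Of 17 tested genes for transcription and processing of histone RNA, none passed in the fl lines by limma, 2 were higher and 2 lower at an unadjusted p under 0.05, and the list median was 0.27, with 0.13, -0.04 and 0.63 in lines 10949, 10950 and 10986. Cstf2, a subunit of the cleavage machinery, had a change of 0.30 (SE 0.10, adjusted p = 0.339) and Hinfp, a transcription factor of H4 genes, by -0.37 (SE 0.12, adjusted p = 0.341). Named for their roles and not by the rule, Npat, which drives histone transcription in S phase, had a change of 0.43 (SE 0.27) and Slbp, which binds the stem-loop, by 0.13 (SE 0.15). Both had their largest change in line 10986 (1.28 and 0.56), whose vehicle array stood apart. Of 23 histone chaperone and deposition genes none passed, 0 had an unadjusted p under 0.05, and the median was 0.09. Rbbp4, a subunit of the CAF-1 complex, had a change of 0.26 (SE 0.11) and Ipo4, an importin for histones, by -0.21 (SE 0.10). Of 3 tested variants outside the symbol rule, the macroH2A gene Macroh2a1 had a change of 0.22 (SE 0.10) and Macroh2a2 by -0.09 (SE 0.12), and the centromeric H3 gene Cenpa by -0.02 (SE 0.14).

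Lists of cell cycle genes had medians of unlike sign between lines. Of 23 S phase genes none passed in the fl lines by limma, and the list medians in the fl lines, in the order used above, were 0.05, -0.02 and 0.34. Ccne1, the cyclin E gene, had a change of 0.35 (SE 0.09, adjusted p = 0.228) and E2f1, which drives S phase genes, by -0.36 (SE 0.09, adjusted p = 0.244). Of 19 mitosis genes none passed, with medians of -0.20, -0.30 and 0.19 in the fl lines and -0.24 and 0.12 in wt lines 10977 and 10980. These medians had the sign of the 20 lower histone members in every line but 10986, whose vehicle array stood apart. Mki67 and Aurkb had a change of -0.33 (SE 0.11) and -0.26 (SE 0.10). Monocyte and macrophage markers did differ with the groups: 1 of 10, the matrix proteoglycan gene Vcan, rose by 1.48 in the fl lines (SE 0.11, adjusted p = 0.0457), and 8 of 10 were higher at an unadjusted p under 0.05. Their mean log2 level over the list ran from 8.66 to 8.81 on the fl vehicle arrays, from 9.28 to 9.94 on the fl 4-OHT arrays and from 8.83 to 9.32 on the wt arrays. The collagenase gene Mmp8 (2.56, SE 0.20, limma adjusted p = 0.0482) was the 1 of 9 late granulocyte genes that passed. In that list 2 genes were higher at an unadjusted p under 0.05, and the median change was 0.13. No gene passed in the mast cell, erythroid, lymphoid and stroma lists (6, 3, 4 and 6 genes tested). The part of these other genes in the histone values was not tested.

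The absence of calls depended on the rows and arrays tested. With 1 probe set per gene, which leaves 38 histone rows among 15662, H2ax and H3c4 passed in the fl lines (adjusted p = 0.046 for both), against 0.153% of all rows. Both also passed without line 10986 (-1.20, adjusted p = 0.028, and -1.44, adjusted p = 0.0457), where 0.572% of all rows did. Without the vehicle array of that line and with the line as a random block, 9 members passed, against 2.28% of all rows. With all arrays and a random block, H2ax was the 1 member to pass, against 0.324% of all rows.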

How the data were processed

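Per the submitters' processing notes the authors used RMA. The deposited series table gives an intensity for each probe set on each array; its range shows a linear scale, and log2 of these intensity values was taken here. The RMA version was not given in the sources read. Per the labels' protocols, RNA was extracted with Trizol and labelled with biotin using the Ambion WT kit. Arrays have no read depth; their number limits the precision.

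The platform annotation names 23410 of the 35556 probe sets, 21789 with 1 symbol and 1621 with several. Those named with a mean log2 of at least 6.23 (25th percentile of all 35556) were tested, 18530 in all. They were tested as probe sets and not as genes because many members carry several symbols. All 83 member symbols were found by Entrez identifier in the RefSeq table of GRCm38.p6.

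The effect of 4-OHT was fitted across the 10 arrays in limma 3.58.1 (R 4.3.3) with a fixed block for each line and a separate 4-OHT term for each genotype (6.02 total degrees of freedom), two-sided, Benjamini-Hochberg adjusted over all tested probe sets, threshold 0.05. Genotypes were compared in a model of the 4 group means in which lines were a random block (statmod 1.5.0, correlation 0.166). The pairing comes from the series design, in which each line was cultured both ways. Deviations of a line's pair of arrays from their group means correlated at 0.72 (10949), 0.26 (10950) and -0.14 (10986). Lines 10977 and 10980, the only wt lines, mirror each other around their group means, so they share the value 0.44. Lines are independent leukaemias with 1 array per culture. The p-values of the 4-OHT effects rest on how the within-line change varies between lines, pooled over both genotypes. Those of the genotype comparisons rest on the spread of arrays within the 4 groups, given the correlation within a line. In both, limma moderates the spread with that of all rows tested. The fits were tested on simulated data.

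Classes went by symbol: linker (H1f), core (H2ac, H2bc, H3c, H4c), variant (other members) and several symbols. Values on every fl array are given for the 2 probe sets per class with the largest mean change in the fl lines. The same holds for a fixed set of variants and linkers, for H2az1 in its first row only. Values on the wt arrays are given for a part of these. List genes are those past the threshold or the 2 with the smallest p. H1f1, H1f5, H1f7, H1f10, H2ac4, H3c7, H2bc18, H2bc21, H2bc22, H2bc4, H4c4, H2aj, Cenpa and the other genes along the clusters were added after their values were seen, where the rule did not name them. Members and lists were chosen with earlier results of these data known. Alternatives were no block, a random block, other level filters and sets of probe sets, other scalings, another variance prior, only the arrays compared, each line left out and the vehicle array of line 10986 left out; counts at an unadjusted p were added after seeing the data.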

Additional observations from a re-analysis of the deposited data

How the results depend on the processing

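For 4-OHT in the fl lines, 0 members passed without the replicate block, at the other level filters, over all probe sets, under both scalings, with the trended prior and with only the fl arrays. A random replicate block gave 1, 1 probe set per gene gave 2, leaving out 1 line gave 0 to 2, and leaving out the vehicle array of line 10986 with a random block gave 9 (423 of all 18530 then passed). The median member change was -0.26 with 1 probe set per gene, as rows with several symbols drop out, and -0.21 to -0.10 with 1 line left out (-0.21 without line 10949), against -0.10. Of the counts at an unadjusted p under 0.05, the 20 lower members became 12 to 20 with 1 line left out (12 without line 10950), and the 21 higher in the vehicle comparison 11 to 21. Members passing in the vehicle comparison came to 0 to 2 with 1 line left out, with H1f2 and H2az2 passing without line 10949. The share of all rows passing in those fits is not given beside these counts, so they cannot be read as above or below it. In the wt lines, the difference of effects and the 4-OHT comparison 0 members passed under each alternative run. Without line 10986, H3f3a turned to 0.070 and the H2az1 rows to -0.056 and -0.044, and without its vehicle array they came to 0.070, -0.061 and -0.054. With 1 line left out these values ran from -0.18 to 0.070, from -0.056 to 0.12 and from -0.044 to 0.071; the cause was not tested. For the 18 named members, 267 of 284 values kept direction and side of the threshold, 11 newly passed it and 6 changed sign. A random block is already the fit of the genotype comparisons. With 3 and 2 lines, differences as large as 1.80 did not pass, and signals near the array's upper end leave changes of multi-copy rows poorly bounded.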

Other observations

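The 9 rows left out because they also name a pseudogene or another gene gave these values. The 2 rows that list 20 and 19 symbols, mostly replication-dependent H2A, had changes with 4-OHT of -0.10, -0.17 and -0.07 and of -0.13, -0.24 and -0.07 in fl lines 10949, 10950 and 10986, and of 0.04 and 0.10 and of 0.00 and 0.08 in wt lines 10977 and 10980. Both were thus slightly lower in each fl pair and not in the wt pairs. The 2 rows of H3f3b with the pseudogene Gm6485 had -0.16, -0.17 and 0.13 and -0.15, -0.18 and 0.10 in the fl lines, without a shared direction. The 4 rows of H3f3a with the pseudogene Gm12657 had mean log2 signals of 11.95 to 12.44. Their changes lay between -0.14 and -0.05 in line 10949, between -0.06 and 0.11 in line 10950 and between 0.19 and 0.30 in line 10986, and between -0.23 and -0.11 in the wt lines, so the fl lines shared no direction here either. The row of H2aw with Trim17 had -0.21, 0.08 and -0.09 in the fl lines and -0.11 and -0.03 in the wt lines.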
